A study of Mus musculus with 17 samples.

Results

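The 31 genes described here are the mouse semaphorins, plexins and neuropilins, which are 20 semaphorin, 9 plexin and 2 neuropilin genes among the 31091 genes with an identifier in the count table. They were taken as whole gene families, and 31 of 31 were found. Their mRNA was measured by bulk RNA sequencing in conventional dendritic cells of type 1 (cDC1s) and type 2 (cDC2s) from mouse spleen. CD11c-enriched splenocytes of C57BL/6JRj mice bearing B16 tumors that express FLT3L, a growth factor that expands dendritic cells, were cultured for 6 h with medium from TC-1 cells and then sorted into XCR1+CD8α+ cDC1s and SIRPα+CD11b+ cDC2s. The study's protocol for such cultures, to which its sequencing methods refer, added GM-CSF for better survival of the CD11c+ cells. TC-1 is a lung epithelial tumor cell line of C57BL/6 mice. The medium came from live TC-1 cells (WT), from TC-1-iBimS cells that had died by apoptosis after induction of BimS, or from TC-1-iRIPK3 cells that had died by necroptosis after induction of RIPK3. The inducer cumate was given to the 3 kinds of TC-1 cell alike, and cumate is therefore present in WT medium too. The mice were females, bought at 8 weeks of age. The iBimS and iRIPK3 lines were made clonal by sorting single cells, and the number of clones used for this experiment is not given in the sources used here, so a difference between media cannot be told apart from a difference between lines. Cells of both types were in the same culture with the debris, and spleens of several mice were pooled in the study's experiments with primary cells, so the p-values measure the spread between these samples. There were 3 samples per group and 2 for cDC2s with RIPK3 medium.

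Semaphorins are guidance ligands first described in growing axons. Class 3 semaphorins are secreted, classes 4 to 6 span the membrane, and Sema7a is held on the membrane by a lipid anchor. Plexins are their receptors and carry an intracellular domain that inactivates small GTPases, through which they remodel the cytoskeleton and loosen or redirect adhesion, while neuropilins lack such a domain and serve with plexins as the binding part of the receptor for class 3 semaphorins and for VEGF. In the immune system several members sit on dendritic cells and lymphocytes, where they act in cell contact, costimulation and migration.

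Reads counted on genes ranged from 16.1 to 21.6 M per sample, with a median of 19.0 M. The sorted cells carried the markers of their labels. The summed level of 8 cDC1 markers was 1353 to 1677 CPM (counts per 1 M gene counts, with TMM-adjusted library sizes) in cDC1 samples and 77.1 to 104.6 CPM in cDC2 samples, and that of 7 cDC2 markers was 290.2 to 383.8 CPM in cDC2 samples and 2.66 to 5.10 CPM in cDC1 samples. In bulk RNA, fewer cells of a type and less RNA per cell cannot be told apart.

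At this depth, 16 of the 31 members reached a mean of at least 10 counts in some group. These were Sema3f, Sema4a, Sema4c, Sema4d, Sema4f, Sema4g, Sema6b, Sema6d, Sema7a, Plxna1, Plxna3, Plxnb2, Plxnc1, Plxnd1, Nrp1 and Nrp2. The other 15 stayed below that level, with 12 counts (Sema4b) as the highest value in any sample. By class, 1 of 7 class 3 semaphorins was measured in this sense, 5 of 6 of class 4, 0 of 2 of class 5, 2 of 4 of class 6 and Sema7a, beside 2 of 4 plexins A, 1 of 3 plexins B, Plxnc1, Plxnd1 and both neuropilins. Sema3a, Sema3d, Sema3e, Sema3g, Sema5a, Sema5b, Plxna2 and Plxnb3 had at most 3 counts in every sample, which is the limit below which no fold change is given. Sema3b, Sema3c, Sema6a, Sema6c, Plxna4 and Plxnb1 had at most 7 counts in any sample. Plxnb1, the high-affinity receptor of Sema4d, had 0 to 5 counts per sample and a mean of 0.112 CPM in WT, 0.182 CPM in BimS and 0.0744 CPM in RIPK3 cDC1s. With so few counts a change in Plxnb1 was not detectable at this depth. In each cell type 25 members passed the filter (a count above 0 in 50% or more of the samples), among them members with a handful of counts. Those that did not pass were Sema3a, Sema3c, Sema3e, Sema5a, Sema5b and Plxna2 in cDC1s, and Sema3d, Sema3e, Sema3g, Sema5a, Sema5b and Plxnb3 in cDC2s.

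**Figure D1:**
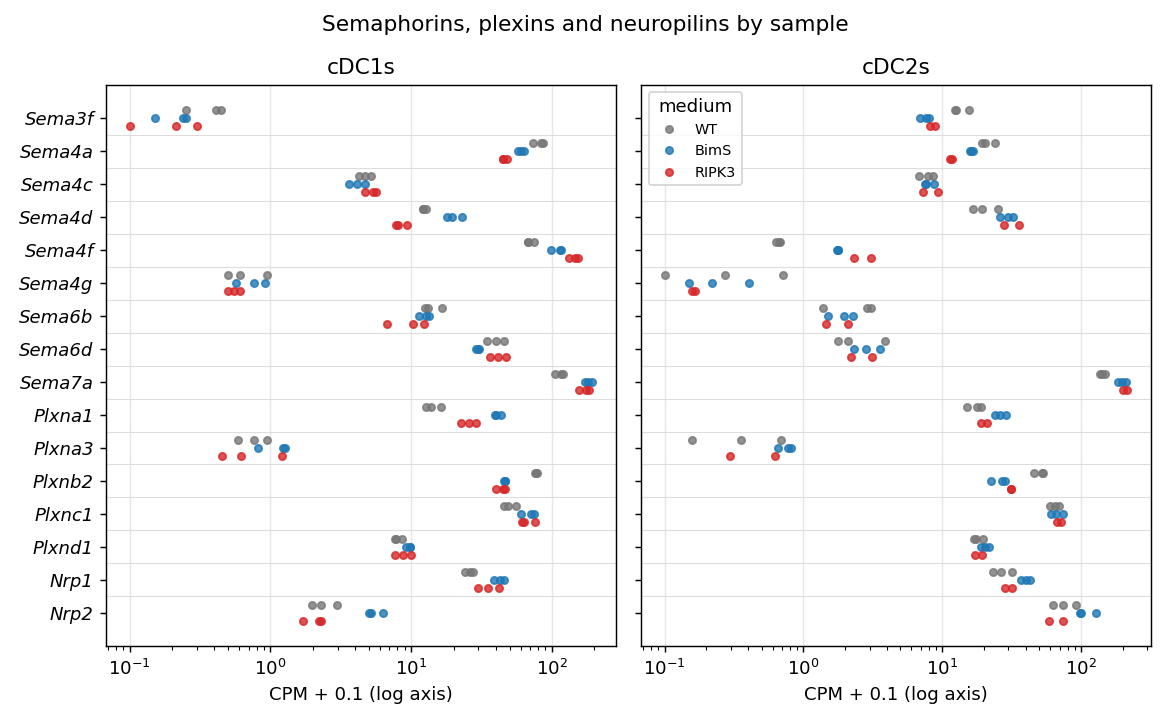
Level of the 16 measured members in each sample, as CPM + 0.1 on a log axis, in cDC1s (left) and cDC2s (right), with 1 point per sample colored by medium. Sema4f, Sema6b and Sema6d lie further right in cDC1s than in cDC2s, and Sema3f and Nrp2 further right in cDC2s than in cDC1s. Sema7a is above 100 CPM in every sample of both.

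Levels of different genes were compared per kb of exon. In WT cDC1s Sema7a stood highest at 34.2 ± 2.2 CPM per kb (SD, n = 3), followed by Sema4f at 10.5 ± 0.649, Plxnb2 at 9.42 ± 0.165, Sema4a at 8.91 ± 0.752 and Plxnc1 at 5.80 ± 0.598 CPM per kb. Plxnb2 and Sema4a did not differ beyond their spread. Sema6d followed at 3.47 ± 0.493, Sema6b at 2.08 ± 0.321 and Nrp1 at 1.69 ± 0.120 CPM per kb. Plxnd1, Sema4d and Plxna1 lay between 0.909 and 0.999 CPM per kb and did not differ beyond their spread, and Nrp2 was at 0.193 ± 0.0428 CPM per kb. In WT cDC2s Sema7a again stood highest at 42.8 ± 1.84 CPM per kb, above Plxnc1 at 7.50 ± 0.579, Nrp2 at 6.33 ± 1.23 and Plxnb2 at 6.15 ± 0.514 CPM per kb, of which Nrp2 overlapped with both neighbors. Sema3f, Sema4a and Plxnd1 lay between 2.26 and 2.37 CPM per kb and did not differ beyond their spread. The ligand Sema7a, its receptor Plxnc1 and the receptor Plxnb2 were thus among the more abundant members in both cell types.

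The first comparison was between the cell types, over the 3 media. Of the 23 members tested, 14 differed between cDC1s and cDC2s, which is 60.9% against 59.8% of all genes tested. Higher in cDC1s were 7 (30.4% of all genes) and lower 7 (29.4%). Among the 16 measured members 13 differed, where 74.6% of genes with at least 10 counts did, so members differed about as often as other genes. The sizes of the differences varied widely. Sema4f was 70.8-fold higher in cDC1s (log2 difference 6.15 ± 0.10 SE, edgeR adjusted p = 2.43e-26), Sema6d 13.8-fold (3.79 ± 0.13, 8.17e-15) and Sema6b 6.21-fold (2.63 ± 0.14, 1.01e-13). Sema4a, a membrane semaphorin known on dendritic cells as a costimulator of T cells, was 3.84-fold higher in cDC1s (1.94 ± 0.05, 2.14e-24), and Plxnb2 1.57-fold (0.65 ± 0.05, 5.95e-12). Sema4g (log2 difference 1.71) and Plxna3 (0.83) were also higher in cDC1s, at 0 to 24 counts per sample. 

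In cDC2s the secreted ligand Sema3f was 56.5-fold higher (log2 difference of cDC1s against cDC2s -5.82 ± 0.17, edgeR adjusted p = 1.64e-23) and Nrp2, the neuropilin that binds Sema3f, 26.5-fold higher (-4.73 ± 0.14, 2.01e-14). Sema3f had 0 to 7 counts in cDC1 samples and up to 287 in cDC2 samples. Plxnd1 was 2.16-fold higher in cDC2s (-1.11 ± 0.06, 4.03e-16), Sema4d 1.98-fold (-0.98 ± 0.18, 2.51e-04), Sema4c 1.73-fold (-0.79 ± 0.09, 3.28e-09) and Sema7a 1.18-fold (-0.24 ± 0.05, 2.76e-05). The call on Sema7a was lost with limma on unnormalized log2 counts (adjusted p = 0.52). Sema3c is among the 14 members that passed, but it had at most 2 counts in any cDC1 sample and at most 5 in any cDC2 sample and entered the fit through cDC2s, so no difference is given for it. Nrp1 (0.08 ± 0.07, 0.323), Plxnc1 (-0.14 ± 0.07, 0.0935) and Plxna1 (0.27 ± 0.12, 0.0677) did not pass. Nrp1 passed with limma (0.00725). Plxnc1 passed without a filter (0.0328) and without cDC1 BimS replicate 1, cDC1 RIPK3 replicate 1 or cDC2 BimS replicate 3 (0.0268 to 0.0323). Plxna1 passed with DESeq2 (0.038), limma (0.0132) and filterByExpr (0.041) and without WT replicate 1 or 2 of either cell type (0.0135 to 0.0366). The 5 markers of endothelium, where Nrp2 and Plxnd1 are also made, summed to 10.1 to 19.9 CPM in cDC1 samples and 15.3 to 25.5 CPM in cDC2 samples, and their part in these differences was not tested.

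**Figure D2:**
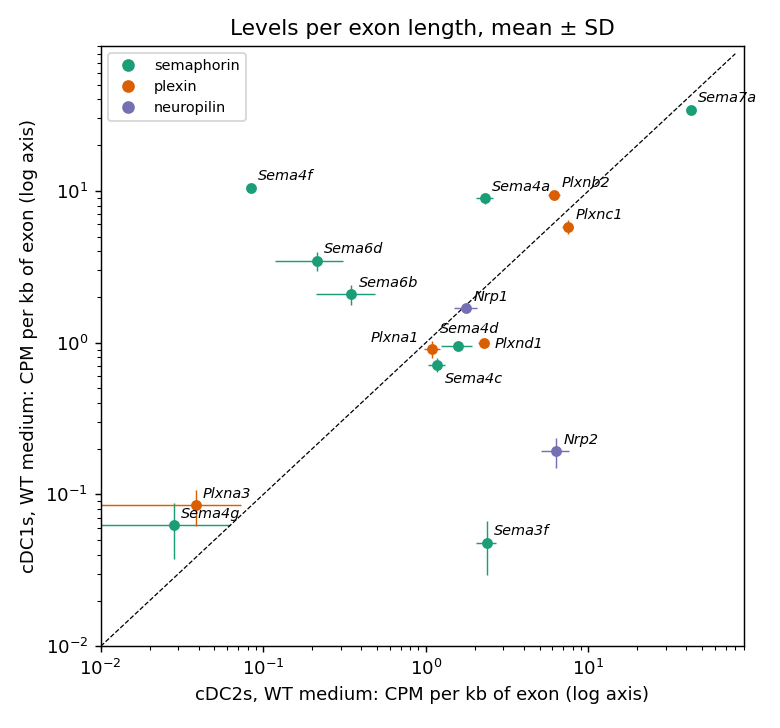
Level per kb of exon in WT cDC1s against WT cDC2s for the 16 measured members, as mean ± SD over 3 samples on log axes, with a dashed line of equal levels. Sema4f, Sema6d and Sema6b lie far above the line, Nrp2 and Sema3f far below it, and Nrp1, Plxna1 and Plxnc1 close to it.

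The comparisons between media asked how debris of apoptotic and of necroptotic cells changed each cell type. In cDC1s, 10 of 25 members changed with BimS medium against WT (40.0%, against 13.2% of all genes tested), of which 7 were higher (7.31% of all genes) and 3 lower (5.89%), and their median log2 fold change was 0.26 against 0.00 over all genes. Beside it stands the share among genes with a group mean of at least 10 counts, which was 19.2%. With RIPK3 medium 8 members changed against WT (16.5% of all genes, and 23.9% of those with at least 10 counts), 5 of them higher (8.34%) and 3 lower (8.19%), with a median of 0.00 against -0.01. Between RIPK3 and BimS medium 6 members differed (4.15% of all genes, 6.08% of those with at least 10 counts), 2 higher (1.94%) and 4 lower (2.21%) with RIPK3 medium, with a median of -0.13 against 0.00. The called members in cDC1s were among the 16 that were measured. Both comparisons with WT use the same 3 WT samples.

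In cDC2s, 8 of 25 members changed with BimS medium (7.01% of all genes, 10.4% of those with at least 10 counts), 5 of them higher (3.8%) and 3 lower (3.21%), with a median log2 fold change of 0.05 against -0.02 over all genes. With RIPK3 medium 6 members changed (7.21% and 10.7%), 3 of them higher (3.93%) and 3 lower (3.28%), with a median of 0.09 against -0.02. None passed between RIPK3 and BimS medium with edgeR (0.379% of all genes), where 7 members had an unadjusted p under 0.05 and Nrp2 passed with DESeq2 and with limma. Samples that share a replicate number within a cell type deviated together, and 4 members passed between RIPK3 and BimS medium in cDC2s with the replicate number as a block (14.3% of all genes), which are given with each gene. In the other comparisons the block gave 10 members for BimS (17.9% of all genes) and 9 for RIPK3 against WT medium (21% of all genes) and 7 between them (8.87%) in cDC1s, and 9 (21.3%) and 7 (21.4%) against WT medium in cDC2s.

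**Figure D3:**
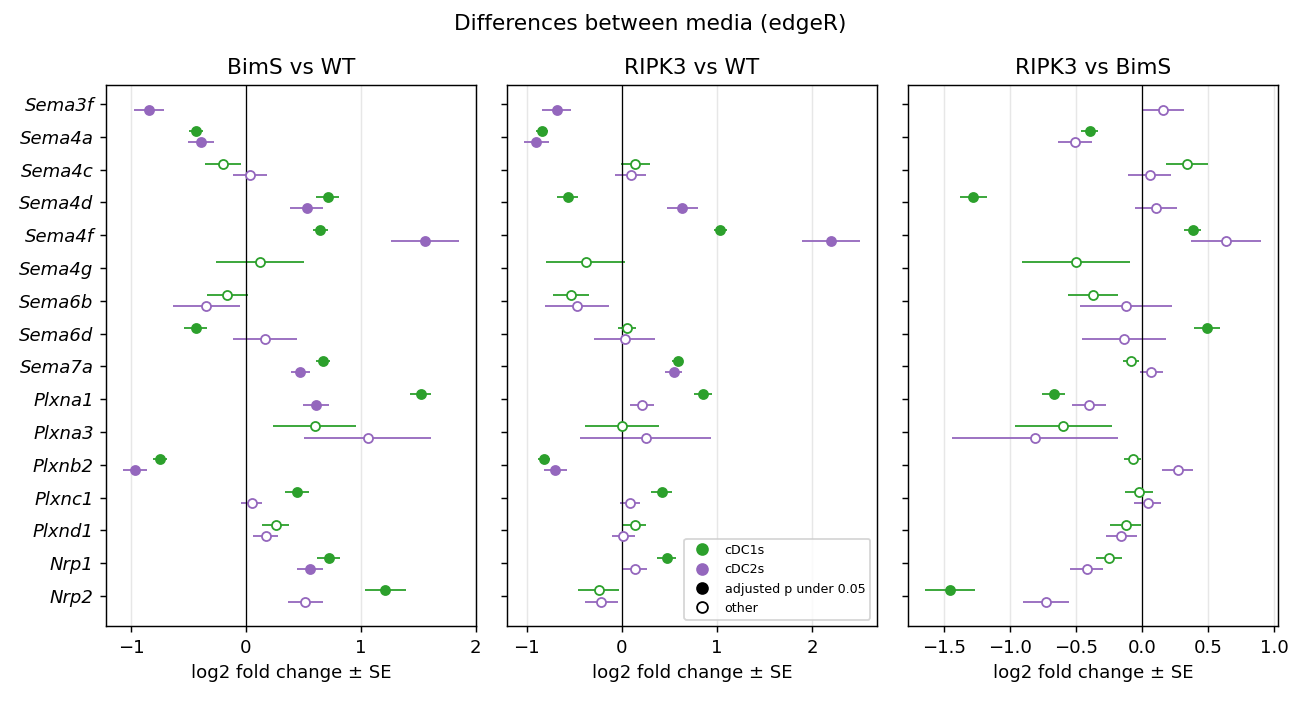
Log2 fold change ± SE (edgeR) of the measured members with each kind of debris against WT (left, middle) and of RIPK3 against BimS medium (right), in cDC1s (green) and cDC2s (purple), with filled points for an adjusted p under 0.05. Members below 10 counts in a cell type are left out there. Sema4d points to opposite sides of 0 in the 2 cell types with RIPK3 medium.

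Among the ligands, Sema4d had a different order of media in each cell type. Sema4d (CD100; chr13:51836318-51947922, minus strand, GRCm39) is a class 4 semaphorin that binds Plxnb1, Plxnb2 and, on lymphoid cells, Cd72. In cDC1s its level was 12.1, 12.0 and 12.8 CPM with WT medium, 23.0, 18.0 and 19.4 CPM with BimS medium and 9.26, 7.68 and 7.94 CPM with RIPK3 medium. Each BimS sample was above each WT sample, and each RIPK3 sample was below. Sema4d thus rose with BimS medium (log2 fold change 0.71 ± 0.10 SE, edgeR adjusted p = 8.79e-07), fell with RIPK3 medium (-0.57 ± 0.11, 1.87e-04) and was 2.42-fold lower with RIPK3 than with BimS medium (-1.28 ± 0.10, 3.45e-10).

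In cDC2s Sema4d was at 16.5, 25.0 and 19.3 CPM with WT medium, at 25.8, 29.8 and 32.1 CPM with BimS medium and at 27.6 and 35.7 CPM with RIPK3 medium. Both kinds of debris gave higher values than WT, although the highest WT sample (25.0 CPM) was close to the lowest BimS sample (25.8 CPM). It rose with BimS (0.53 ± 0.14, adjusted p = 0.0377) and with RIPK3 medium (0.64 ± 0.16, 0.0222). Leaving out single samples ended these calls, with adjusted p of 0.0853 to 0.145 for BimS (without BimS replicate 2 or 3 or WT replicate 1 or 3) and of 0.323 without RIPK3 replicate 2 and 0.083 without WT replicate 3 for RIPK3. The RIPK3 call was also lost with limma (0.062). The difference between the cell types was tested itself. The response of Sema4d to RIPK3 medium, down in cDC1s and up in cDC2s, differed between them (interaction of RIPK3 against WT, log2 -1.21 ± 0.20, adjusted p = 0.00157; 1.14% of all genes called), and likewise for RIPK3 against BimS medium (-1.39 ± 0.20, 0.00374; 6 genes or 0.0314% of all genes called), the latter not without cDC2 RIPK3 replicate 2 (0.172). For BimS against WT the interaction was 0.18 ± 0.19 (0.887). Sema4d shares 1766 exon bases with Secisbp2 on the other strand, and whether the counting used strand is not given in the sources used here. Secisbp2 was at 27.6, 34.3 and 30.3 CPM in cDC1s with WT, BimS and RIPK3 medium, and it rose with BimS medium too (0.31 ± 0.07, 0.00124). In cDC2s it was at 34.5, 43.7 and 35.8 CPM. Its part in the values of Sema4d was not tested.

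RefSeq promoter windows, from 250 bases before to 50 after a transcript start, were held for 26 of the 31 members (37 windows, from a table of GRCm38.p6). Each was matched exactly to GRCm39. They were searched on both strands for TGACNNNGC (the core of the antioxidant response element), TGANTCA (AP-1), CACGTG (E-box), ACGTG (the core of the hypoxia response element, which every CACGTG also holds) and a 10-letter NF-kappaB motif. TGACNNNGC was in 6 of the 37 windows, from Plxnb3, Sema3g, Sema4a, Sema4d, Sema5a and Sema7a, and in 12.4% of all 32851 windows. TGANTCA was in 3 (Sema4c, Sema4d and Sema6b; 7.81% of all windows), CACGTG in 3 (Sema3e, Sema4b and Sema6d; 7.15%), ACGTG in 8 windows of 7 members (19.6%) and the NF-kappaB motif in 0 (0.411%). The 250 bases before the start are shown for the windows of Sema4d, Sema4a and Sema7a that hold a match, since these ligands changed with debris in both cell types, with the matched letters in capitals. For Sema4d the first window lies at chr13:51910720-51910969 and the second at chr13:51902847-51903096, both on the minus strand and inside the span of the gene. That of Sema4a lies at chr3:88366192-88366441 on the minus strand, and that of Sema7a at chr9:57847145-57847394 on the plus strand.
Sema4d, first window: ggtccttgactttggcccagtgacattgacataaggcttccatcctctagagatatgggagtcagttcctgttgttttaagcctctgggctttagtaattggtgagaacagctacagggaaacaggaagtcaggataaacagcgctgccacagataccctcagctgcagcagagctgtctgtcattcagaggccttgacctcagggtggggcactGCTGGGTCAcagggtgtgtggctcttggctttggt
Sema4d, second window: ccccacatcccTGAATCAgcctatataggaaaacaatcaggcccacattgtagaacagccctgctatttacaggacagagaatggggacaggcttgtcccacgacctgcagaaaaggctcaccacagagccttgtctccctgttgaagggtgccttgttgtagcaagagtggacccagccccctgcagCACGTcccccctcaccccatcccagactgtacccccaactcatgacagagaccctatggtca
Sema4a: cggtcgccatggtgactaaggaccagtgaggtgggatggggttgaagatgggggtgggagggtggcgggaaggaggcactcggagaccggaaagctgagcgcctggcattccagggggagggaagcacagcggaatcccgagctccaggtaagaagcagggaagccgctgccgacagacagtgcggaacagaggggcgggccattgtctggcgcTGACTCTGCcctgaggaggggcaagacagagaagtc
Sema7a: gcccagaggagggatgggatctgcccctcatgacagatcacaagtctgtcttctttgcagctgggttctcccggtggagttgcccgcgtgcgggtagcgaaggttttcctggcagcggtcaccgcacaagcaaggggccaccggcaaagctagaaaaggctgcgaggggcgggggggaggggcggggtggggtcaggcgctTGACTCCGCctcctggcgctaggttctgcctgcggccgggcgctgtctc
The first Sema4d window holds a TGACNNNGC match on its reverse strand, and the second a TGANTCA match and an ACGTG match on its reverse strand. A match of these letters is a description of the window and shows no binding.

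Sema4a (chr3:88343262-88372558, minus strand) fell with both kinds of debris in both cell types. In cDC1s it was at 87.0, 73.8 and 83.5 CPM with WT medium, at 63.4, 57.1 and 59.8 CPM with BimS and at 47.5, 44.7 and 44.8 CPM with RIPK3 medium. The cDC2 samples were at 23.9, 19.3 and 20.1 CPM, at 15.8, 15.9 and 16.6 CPM, and at 11.6 and 11.2 CPM, in the same order. The 3 media formed separate steps in each cell type, with WT highest and RIPK3 lowest. In cDC1s Sema4a fell by 0.44 ± 0.06 on the log2 scale with BimS (edgeR adjusted p = 1.21e-06) and by 0.83 ± 0.06 with RIPK3 medium (6.49e-13), and it was lower with RIPK3 than with BimS medium (-0.40 ± 0.06, 1.12e-04). In cDC2s it fell by 0.39 ± 0.11 with BimS (0.0334) and by 0.90 ± 0.13 with RIPK3 medium (8.46e-05). The BimS call in cDC2s was lost in 7 of 8 fits that left out a sample (adjusted p 0.0539 to 0.144), with DESeq2 (0.0561) and with limma (0.0756). RIPK3 against BimS medium in cDC2s gave -0.51 ± 0.13 (0.119), which passed with the replicate block (6.76e-05), without a filter (0.0373) and without WT replicate 3 (0.0478).

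Sema4f (chr6:82887696-82916761, minus strand), the class 4 member with the largest difference between the cell types, rose with both kinds of debris. The cDC1 samples were at 67.2, 75.0 and 67.7 CPM with WT medium, at 97.9, 116 and 115 CPM with BimS and at 132, 153 and 145 CPM with RIPK3 medium. Values in cDC2s were 0.564, 0.574 and 0.540 CPM (10 to 11 counts), 1.64, 1.68 and 1.67 CPM and 2.20 and 2.99 CPM (34 to 51 counts). The media again formed separate steps, here with WT lowest and RIPK3 highest. The rise in cDC1s was 0.65 ± 0.07 with BimS (adjusted p = 4.46e-08) and 1.03 ± 0.07 with RIPK3 medium (4.32e-12), and RIPK3 was above BimS (0.39 ± 0.07, 5.59e-04; 0.115 with limma). In cDC2s the rise was 1.56 ± 0.30 (0.00182) and 2.20 ± 0.31 (5.93e-05). On the log2 scale the rise with RIPK3 medium was smaller in cDC1s (interaction -1.18 ± 0.27, 0.019), a call that was lost without cDC2 RIPK3 replicate 2 (0.371) or any of the 3 cDC2 WT samples (0.0529 to 0.0587).

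Sema7a (chr9:57847375-57870151, plus strand) binds Plxnc1 and the integrin subunit Itgb1. Its cDC1 levels were 116, 119 and 105 CPM with WT medium, 194, 179 and 170 CPM with BimS and 173, 182 and 157 CPM with RIPK3 medium. Its cDC2 levels were 149, 141 and 137 CPM, 211, 184 and 198 CPM and 215 and 202 CPM. Every sample with debris was above every WT sample of its cell type, and the values with the 2 kinds of debris overlapped. It rose in cDC1s by 0.67 ± 0.06 with BimS (2.67e-10) and 0.59 ± 0.06 with RIPK3 medium (3.86e-09), and in cDC2s by 0.47 ± 0.08 (6.00e-04) and 0.54 ± 0.09 (3.67e-04; 0.11 with limma). RIPK3 against BimS medium gave -0.08 ± 0.06 (0.549) in cDC1s and 0.07 ± 0.09 (0.872) in cDC2s.

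Sema6d (chr2:123931715-124509928, plus strand), a membrane semaphorin that binds Plxna1, was at 45.7, 34.3 and 40.1 CPM in WT, at 29.6, 30.3 and 28.7 CPM in BimS and at 47.0, 41.1 and 36.4 CPM in RIPK3 cDC1s. The BimS samples lay below the other 6, which overlapped with each other. Sema6d fell by 0.44 ± 0.10 with BimS medium (adjusted p = 0.00649), did not pass with RIPK3 medium (0.05 ± 0.10, 0.813) and was higher with RIPK3 than with BimS medium (0.49 ± 0.10, 0.00922), the last not without BimS replicate 1 (0.0545) or 3 (0.0566). For cDC2s the values were 3.75, 2.01 and 1.67 CPM with WT, 3.47, 2.75 and 2.21 CPM with BimS and 3.04 and 2.11 CPM with RIPK3 medium, and the groups overlapped.

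Sema6b (chr17:56430078-56449459, minus strand) was at 12.4, 16.4 and 13.2 CPM in WT, at 11.4, 13.3 and 12.7 CPM in BimS and at 6.68, 12.1 and 10.2 CPM in RIPK3 cDC1s. The RIPK3 samples were below the WT samples, but spread widely. The difference did not pass (-0.53 ± 0.19, adjusted p = 0.086), and did so with the replicate block (3.06e-06), with DESeq2 (0.00744), with limma (3.14e-05), without a filter (1.32e-05) and without RIPK3 replicate 2 (9.51e-04). Against BimS medium the value was -0.37 ± 0.19 (0.406), which passed with the block (0.00605), with limma (0.0325), without a filter (0.0252) and without RIPK3 replicate 2 (0.0417). In cDC2s Sema6b was at 1.28, 2.98 and 2.75 CPM with WT, at 1.40, 2.19 and 1.85 CPM with BimS and at 1.36 and 1.99 CPM with RIPK3 medium, with overlap.

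Sema3f (chr9:107558698-107587674, minus strand) was the only class 3 ligand with a mean of at least 10 counts in a group. It fell with debris in the cell type that expressed it. In cDC2s it was at 12.2, 12.4 and 15.5 CPM with WT, at 6.81, 7.57 and 7.93 CPM with BimS and at 8.73 and 8.03 CPM with RIPK3 medium. Both debris groups were below each WT sample. Sema3f fell by 0.84 ± 0.13 with BimS (adjusted p = 2.73e-04) and by 0.68 ± 0.15 with RIPK3 medium (0.00603), the latter not without RIPK3 replicate 1 (0.0553) or 2 (0.121). In cDC1s it had 3 to 7 counts with WT, 1 to 3 with BimS and 0 to 4 with RIPK3 medium, too few to compare.

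Sema4c (chr1:36587720-36597963, minus strand), a ligand of Plxnb2, passed in no comparison between media. It was at 5.13, 4.63 and 4.18 CPM in WT, at 4.02, 3.51 and 4.64 CPM in BimS and at 5.26, 4.62 and 5.52 CPM in RIPK3 cDC1s. The cDC2 samples were at 8.41, 6.65 and 7.82 CPM, at 8.58, 7.57 and 7.40 CPM and at 9.25 and 7.21 CPM. The groups overlapped in both cell types. Sema4g, which shares 1181 exon bases with Mrpl43 on the other strand, had 7 to 19 counts in cDC1 samples and 0 to 12 in cDC2 samples and passed in no comparison between media.

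**Figure D4:**
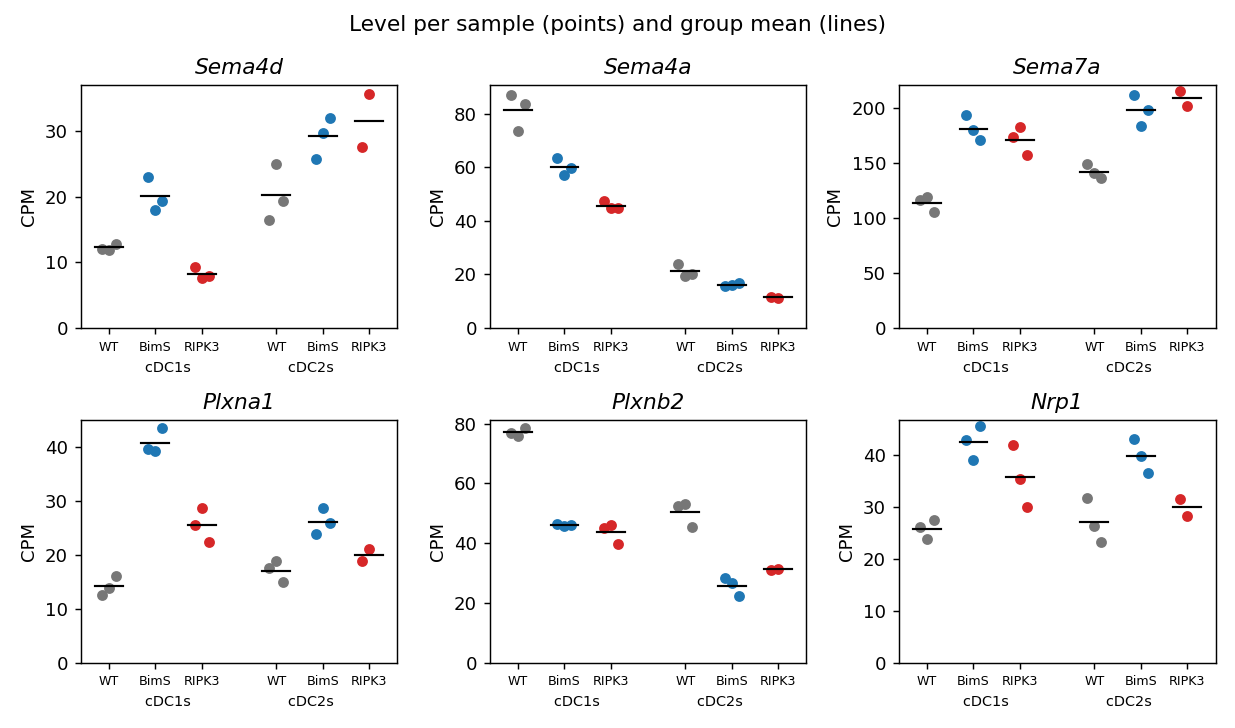
CPM per sample (points) and group mean (lines) of Sema4d, Sema4a, Sema7a, Plxna1, Plxnb2 and Nrp1 with WT, BimS and RIPK3 medium in cDC1s and cDC2s, on axes that start at 0. Sema4a and Plxnb2 fall with debris in both cell types, Sema7a rises in both, and the group means of Plxna1 and Nrp1 are highest with BimS medium, where the Nrp1 samples overlap with those of RIPK3 medium in cDC1s.

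Among the receptors, Plxna1 had the largest change in cDC1s. Plxna1 (chr6:89288589-89339619, minus strand) is a receptor of Sema6d and, with neuropilins, of class 3 semaphorins, and is known to act in the cytoskeleton and migration of dendritic cells. In cDC1s it was at 12.6, 13.8 and 16.2 CPM with WT, at 39.7, 39.3 and 43.6 CPM with BimS and at 25.6, 28.7 and 22.5 CPM with RIPK3 medium. The 3 media did not overlap. It was 2.87-fold higher with BimS (1.52 ± 0.09, adjusted p = 2.10e-14) and 1.80-fold higher with RIPK3 than with WT medium (0.85 ± 0.09, 1.78e-08), and lower with RIPK3 than with BimS medium (-0.67 ± 0.08, 4.35e-06).

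In cDC2s Plxna1 was at 17.6, 18.8 and 14.9 CPM with WT, at 23.9, 28.7 and 26.0 CPM with BimS and at 18.8 and 21.0 CPM with RIPK3 medium. The BimS samples were above the other 5. It rose with BimS (0.61 ± 0.11, 0.00141) and did not pass with RIPK3 medium (0.21 ± 0.13, 0.433), and RIPK3 against BimS gave -0.40 ± 0.13 (0.269; 2.94e-05 with the replicate block). The rise with BimS medium was larger in cDC1s, at 0.91 ± 0.15 for the interaction (8.26e-04; 0.87% of all genes called). For RIPK3 against WT the interaction was 0.63 ± 0.16 and did not pass (0.0534). It passed with the replicate block (0.0101), with DESeq2 (0.0279), without a filter (0.00264) and without cDC1 RIPK3 replicate 3 (0.0238), cDC1 WT replicate 3 (0.0317) or cDC2 WT replicate 3 (0.0098), and not with limma (0.246).

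Plxnb2 (chr15:89039749-89065211, minus strand), a receptor of Sema4c and Sema4d, fell with both kinds of debris in both cell types. The cDC1 samples were at 76.9, 75.8 and 78.5 CPM with WT, at 46.2, 45.6 and 46.0 CPM with BimS and at 45.1, 46.2 and 39.8 CPM with RIPK3 medium. Values in cDC2s were 52.3, 53.2 and 45.5 CPM, 28.3, 26.6 and 22.4 CPM and 31.2 and 31.3 CPM. Every debris sample was below every WT sample of its cell type. In cDC1s its log2 fold change was -0.75 ± 0.06 with BimS (adjusted p = 3.52e-12) and -0.82 ± 0.06 with RIPK3 medium (3.36e-13). In cDC2s it was -0.97 ± 0.10 with BimS (3.45e-06) and -0.70 ± 0.12 with RIPK3 medium (4.84e-04).

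Plxnc1 (chr10:94626728-94780877, minus strand), the receptor of Sema7a, was at 55.7, 45.7 and 48.6 CPM with WT, at 73.9, 59.7 and 70.6 CPM with BimS and at 75.9, 63.3 and 61.1 CPM with RIPK3 medium in cDC1s. The debris samples lay above the WT samples. It rose with BimS (0.44 ± 0.11, adjusted p = 0.018) and with RIPK3 medium (0.42 ± 0.11, 0.0212), calls that were lost without WT replicate 3 (0.0873 and 0.0937), without BimS replicate 3 (0.0699, BimS) and without RIPK3 replicate 3 (0.0519) or WT replicate 2 (0.053) for RIPK3. Its cDC2 levels were 65.0, 69.3 and 59.4 CPM, 65.6, 73.9 and 61.1 CPM and 67.3 and 71.2 CPM, with overlap (0.05 ± 0.09 for BimS and 0.09 ± 0.10 for RIPK3 against WT).

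Plxnd1 (chr6:115931772-115972286, minus strand), a receptor of Sema3e that also binds Sema4a, passed in no comparison between media. Its cDC1 levels were 7.67, 7.63 and 8.49 CPM with WT, 9.73, 9.11 and 9.69 CPM with BimS and 8.70, 9.84 and 7.54 CPM with RIPK3 medium. The BimS samples were above the WT samples, but the difference did not pass (0.26 ± 0.12, adjusted p = 0.161). For cDC2s the values were 17.4, 19.5 and 16.9 CPM, 21.5, 20.2 and 19.0 CPM and 17.3 and 19.2 CPM. Plxna3 had 7 to 24 counts in cDC1 and 1 to 12 in cDC2 samples and passed in no comparison between media.

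Nrp1 (chr8:129085085-129231082, plus strand), the neuropilin that binds Sema3a and VEGF, was at 26.0, 23.9 and 27.5 CPM with WT, at 42.9, 39.0 and 45.6 CPM with BimS and at 41.8, 35.3 and 30.0 CPM with RIPK3 medium in cDC1s. Both debris groups were above WT, and they overlapped with each other. Nrp1 rose with BimS (0.72 ± 0.10, adjusted p = 5.12e-05) and with RIPK3 medium (0.47 ± 0.10, 0.00281). RIPK3 against BimS gave -0.25 ± 0.10 (0.205), which passed without a filter (0.0166) and without RIPK3 replicate 1 (0.0021), the highest of its group. In cDC2s it was at 31.6, 26.2 and 23.2 CPM with WT, at 43.1, 39.8 and 36.6 CPM with BimS and at 31.6 and 28.3 CPM with RIPK3 medium. Here the BimS samples stood above the other 5. Nrp1 rose with BimS (0.56 ± 0.11, 0.00303), not with RIPK3 medium (0.14 ± 0.13, 0.652), and RIPK3 against BimS gave -0.42 ± 0.13 (0.233), which passed with the replicate block (9.75e-09) and without a filter (0.0377).

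Nrp2 (chr1:62742444-62857854, plus strand), the neuropilin that binds Sema3f, was at 2.89, 1.88 and 2.20 CPM with WT, at 6.16, 5.09 and 4.95 CPM with BimS and at 2.17, 1.61 and 2.13 CPM with RIPK3 medium in cDC1s. The BimS samples, with 96 to 121 counts, stood above the other 6, with 32 to 58 counts, which overlapped. Nrp2 was 2.32-fold higher with BimS than with WT medium (1.21 ± 0.18, adjusted p = 3.41e-06) and 2.74-fold lower with RIPK3 than with BimS medium (-1.46 ± 0.19, 3.60e-06). RIPK3 against WT gave -0.24 ± 0.21 (0.546). The cDC2 samples were at 91.9, 74.0 and 62.6 CPM with WT, at 128, 100 and 98.9 CPM with BimS and at 74.2 and 58.2 CPM with RIPK3 medium. In each group replicate 1 was the highest. Without the block the difference with BimS medium did not pass (0.52 ± 0.15, 0.0769), nor did RIPK3 against WT (-0.21 ± 0.17, 0.594) or against BimS medium (-0.73 ± 0.18, 0.157). With the block these were 1.03e-23, 6.61e-06 and 2.89e-39. The difference between BimS and WT medium also passed with DESeq2 (0.00444), limma (0.023), filterByExpr (0.0459) and no filter (8.73e-07), and without WT replicate 1 (0.0042) or RIPK3 replicate 1 (0.0499). That between RIPK3 and BimS medium passed with DESeq2 (0.00214), limma (5.45e-05) and no filter (1.82e-08), and without WT replicate 1 (0.0174). The BimS samples were higher than each WT sample and the RIPK3 samples lower than each BimS sample.

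In cDC1s the ligand Sema4d and the receptors Plxna1 and Nrp2 were thus higher with BimS medium than with either other medium. Nrp1 had its highest mean there but did not pass against RIPK3 medium with edgeR on the filtered genes. In cDC2s the means of Plxna1, Nrp1 and Nrp2 were highest with BimS medium, and none of the 3 passed against RIPK3 medium with edgeR on the filtered genes without the block. Sema4d, Nrp1, Nrp2, Plxna1 and Plxnb1 are named by the study in its account of cDC1s with apoptotic debris. The direction of Sema4d, Nrp1, Nrp2 and Plxna1 here is therefore no independent evidence. No direction is given for Plxnb1, which had at most 5 counts in any sample.

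Genes of the wider pathway were taken from 3 lists. Of 25 co-receptors, partners and processing enzymes, 22 were tested in cDC1s and 24 in cDC2s. In cDC1s 7 changed with BimS medium (3 higher, 4 lower), which is 31.8% against 13.2% of all genes, with a median log2 fold change of -0.18 against 0.00. With RIPK3 medium 3 changed (1 higher, 2 lower), 13.6% against 16.5% of all genes, with a median of -0.08 against -0.01. Between RIPK3 and BimS medium 2 differed (both higher), 9.09% against 4.15%, with a median of -0.08 against 0.00. In cDC2s 6 changed with BimS medium (4 higher, 2 lower; 25.0% against 7.01%, median 0.08 against -0.02), 4 with RIPK3 medium (3 higher, 1 lower; 16.7% against 7.21%, median -0.01 against -0.02) and 1 between them (higher; 4.17% against 0.379%, median -0.05 against 0.00). Among the genes of this list with a group mean of at least 10 counts, 18 in cDC1s and 17 in cDC2s, the shares with BimS and RIPK3 medium were 38.9% and 16.7% in cDC1s (19.2% and 23.9% of all such genes) and 35.3% and 23.5% in cDC2s (10.4% and 10.7%). Itgb1, the integrin subunit that Sema7a binds, fell in both cell types. It went from 1082 ± 4.56 CPM in WT cDC1s to 889 ± 19.2 with BimS (-0.28 ± 0.04, adjusted p = 5.79e-06) and 823 ± 26.7 with RIPK3 medium (-0.39 ± 0.04, 6.30e-09). In cDC2s its log2 fold change was -0.35 ± 0.07 (0.00456) and -0.54 ± 0.08 (1.91e-04). Itga1, an integrin subunit that pairs with Itgb1, rose in cDC1s with BimS medium (0.25 ± 0.06, 0.0024).

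Pgf and Vegfa encode ligands of the VEGF family that bind neuropilins. Pgf went in cDC2s from 66.7 ± 2.31 CPM with WT to 117 ± 4.41 with BimS (0.81 ± 0.08, adjusted p = 9.12e-07) and 162 ± 5.04 CPM with RIPK3 medium (1.27 ± 0.09, 7.57e-09). In cDC1s it was far lower, at 1.90 ± 0.182 CPM with WT and 4.85 ± 0.540 with RIPK3 medium (1.35 ± 0.18, 3.11e-07). With BimS medium it was at 2.97 ± 0.247 CPM there (0.64 ± 0.19, 0.0186). That call was lost without BimS replicate 2 or 3 or WT replicate 2 or 3 (0.059 to 0.0888). Vegfa fell in cDC1s with BimS medium (-0.28 ± 0.05, 2.42e-04), did not pass there with RIPK3 medium (-0.09 ± 0.05, 0.355) and rose in cDC2s with BimS (0.40 ± 0.08, 0.00232) and RIPK3 medium (0.58 ± 0.09, 1.26e-04). Met, a receptor tyrosine kinase that couples to B plexins, went in cDC2s from 4.26 ± 0.931 CPM to 15.3 ± 1.61 with BimS (1.84 ± 0.15, 1.38e-07) and 11.7 ± 0.400 CPM with RIPK3 medium (1.45 ± 0.17, 8.90e-06).

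Of 37 genes of signaling below plexins, 35 were tested in each cell type. In cDC1s 6 changed with BimS (4 higher, 2 lower) and 6 with RIPK3 medium (3 higher, 3 lower), each 17.1% of the list, against 13.2% and 16.5% of all genes. The median log2 fold changes were 0.07 against 0.00 and 0.02 against -0.01. Between RIPK3 and BimS medium 4 differed (2 higher, 2 lower; 11.4% against 4.15%, median -0.03 against 0.00). In cDC2s 2 changed with BimS medium (both higher; 5.71% against 7.01%, median 0.08 against -0.02), 3 with RIPK3 medium (3 higher; 8.57% against 7.21%, median -0.03 against -0.02) and 1 between them (lower; 2.86% against 0.379%, median -0.10 against 0.00). Among the list's genes with at least 10 counts, 32 in cDC1s and 29 in cDC2s, the shares were 18.8% with either medium in cDC1s (19.2% and 23.9% of all such genes) and 6.90% and 10.3% in cDC2s (10.4% and 10.7%). Rnd1, which binds plexins, rose with both kinds of debris. It went in cDC1s from 10.2 ± 0.559 CPM to 15.4 ± 2.79 with BimS (0.59 ± 0.11, adjusted p = 1.47e-04) and 20.1 ± 1.54 CPM with RIPK3 medium (0.98 ± 0.11, 1.11e-08), and in cDC2s from 8.12 ± 0.836 to 15.1 ± 1.32 (0.89 ± 0.12, 6.37e-05) and 18.6 ± 0.313 CPM (1.19 ± 0.13, 4.40e-06). The kinase Pak1, an effector of Rac1, fell in cDC1s with BimS medium (-0.42 ± 0.05, 1.64e-07) and rose in cDC2s with RIPK3 medium (0.50 ± 0.09, 5.25e-04). In cDC1s the GTPase Rac1 rose with BimS (0.18 ± 0.05, 0.00581) and RIPK3 medium (0.27 ± 0.05, 4.21e-05), the former not without WT replicate 1 (0.0794). The tyrosine kinase Fes fell there with RIPK3 medium (-0.26 ± 0.05, 1.07e-04). In cDC2s Rnd3 rose with BimS medium (0.50 ± 0.10, 0.00248) and the tyrosine kinase Fyn with RIPK3 medium (0.32 ± 0.09, 0.0373), the latter not without RIPK3 replicate 1 (0.121) or 2 (0.341) or WT replicate 1 (0.0634) or 2 (0.0567).

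Of 37 other guidance receptors and ligands (slits, netrins, ephrins and their receptors), 25 were tested in cDC1s and 22 in cDC2s. In cDC1s 2 rose with BimS medium and 2 with RIPK3 medium, each 8.0% of those tested, against 13.2% and 16.5% of all genes (medians -0.10 against 0.00 and -0.08 against -0.01). None passed between them with edgeR (4.15% of all genes), where 2 had an unadjusted p under 0.05. The 2 were the ephrin Efnb2 and the ephrin receptor Ephb3, at 2.08 ± 0.313 CPM or less. Both were among the 7 of the 25 genes with at least 10 counts in a group. That is 28.6% with either medium, against 19.2% and 23.9% of all such genes. The call on Efnb2 with BimS medium was lost without BimS replicate 3 (0.0521), and that on Ephb3 with RIPK3 medium without RIPK3 replicate 1 (0.154) or WT replicate 2 (0.111) or 3 (0.0719). Of the 22 genes tested in cDC2s, 9 had at least 10 counts in a group. Among these, 0% changed with BimS and 11.1% with RIPK3 medium (10.4% and 10.7% of all such genes). In cDC2s the count was 0 with BimS medium (7.01% of all genes; 0 at an unadjusted p under 0.05), 1 with RIPK3 medium (4.55% against 7.21% of all genes; Epha2, 0.54 ± 0.15, adjusted p = 0.0316, but 0.473 without RIPK3 replicate 2 and 0.0898 without WT replicate 1) and 0 between them (0.379% of all genes; 3 at an unadjusted p under 0.05).

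Markers of other cells that the gate or the medium could hold were summed per sample. The 11 of 12 listed genes of TC-1 and other adherent cells that were in the table summed to 4.18 to 5.18 CPM in WT, 4.49 to 5.91 in BimS and 4.89 to 6.68 CPM in RIPK3 cDC1s, and to 2.51 to 3.13, 1.88 to 2.86 and 2.58 to 5.37 CPM in cDC2s. The 5 endothelial markers summed to 17.7 to 19.9 CPM in WT, 10.1 to 12.8 in BimS and 11.3 to 14.5 CPM in RIPK3 cDC1s, and to 21.8 to 25.5, 15.3 to 17.8 and 20.05 to 22.4 CPM in cDC2s. Most of this was Pecam1, which dendritic cells also express, and Emcn was at 0 in every group but RIPK3 cDC2s. The 8 macrophage markers summed to 124.8 to 181.8, 85.4 to 127.0 and 121.1 to 194.6 CPM in cDC1s and to 46.9 to 61.3, 57.0 to 71.2 and 69.4 to 88.0 CPM in cDC2s. Most of this was Cd14, which averaged 95.6 to 155 CPM in cDC1 groups and 33.7 to 61.8 CPM in cDC2 groups. C1qa, C1qb, C1qc and Mertk averaged at most 1.19 CPM in any group. Adgre1 averaged at most 1.11 CPM in cDC1 groups, and 3.79, 3.25 and 4.00 CPM in cDC2s with WT, BimS and RIPK3 medium. Of the 8 macrophage markers, 2 to 4 averaged above 1 CPM in a group. The 5 B cell markers summed to 13.7 to 25.4 CPM in cDC1s and, in cDC2s, to 34.8 to 41.1 with WT, 26.9 to 33.2 with BimS and 46.1 to 46.6 CPM with RIPK3 medium, with 1 of the 5 above 1 CPM. T and NK cell markers reached at most 1.52 CPM in a sample, those of plasmacytoid dendritic cells, which also express Nrp1, 2.85 CPM and the 3 B16 markers found (of 5) 0.540 CPM. Their part in the differences of the members was not tested.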

How the data were processed

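Polyadenylated RNA of 17 samples in 6 groups was sequenced as paired-end reads, and the replicate numbers came from the sample labels. The deposited values are raw counts per gene. The authors trimmed reads with SeqPurge, aligned them to GRCm39 with STAR 2.7.10a (build and version as in the submitters' processing notes) and counted them with gensum on Ensembl genes, and they did not normalize these counts. The table's 148 lines without an identifier held 0.0258% to 0.0366% of a sample's counts and were left out. A deposited table of normalized log2 values was not used. Of 31091 identifiers, 30854 were given symbols, coordinates and exon lengths from GENCODE M39 (GRCm39).

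Counts were tested by quasi-likelihood with edgeR 4.0.16 in R 4.3.3, after TMM normalization. A gene entered a fit if it was above 0 in 50% or more of its samples (19513 genes in cDC1s, 19239 in cDC2s and 19082 over both), with Benjamini-Hochberg adjustment over these genes and a threshold of 0.05. Media were compared within each cell type. The cell types, with medium as a term, and the interactions were fitted over 17 samples. Adjusted p-values without a named tool are those of edgeR. The fits were tested on simulated data with known changes. The study's model, limma on log2(count + 1), was an alternative, here with adjusted p-values and without the study's fold threshold, beside DESeq2 1.42.0, RLE size factors, filterByExpr, no filter, the replicate number as a block and each sample left out in turn (limma 3.58.1).

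Members and lists were chosen with earlier results of these data known. Values per sample are given for members that were called between media or averaged at least 5 CPM in a group. Of the pathway lists, up to 4 genes per list and cell type are named, by adjusted p among called genes whose groups did not overlap. No source names a pairing. Pairing was read from the data, as the correlation between samples of their deviations from group means. It exceeded 0.1 in 9 of 9 same-numbered pairs in cDC1s and 7 of 7 in cDC2s, and between cell types in 19 of 24. No 2 libraries agreed within sampling noise. The reads carry no molecular identifiers, so limits from counts cover counting error alone.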

Additional observations from a re-analysis of the deposited data

Results flagged for a closer look

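The response to the media differed between the cell types, by the test of the interaction over 17 samples (edgeR), in 4 cases. For BimS against WT medium the log2 fold change of Plxna1 was 0.91 higher in cDC1s than in cDC2s (adjusted p = 8.26e-04). For RIPK3 against WT medium that of Sema4d was lower in cDC1s by a difference of -1.21 (0.00157) and that of Sema4f by -1.18 (0.019). For RIPK3 against BimS medium that of Sema4d was lower in cDC1s, at -1.39 (0.00374). Groups held 2 or 3 samples, so no sample was tested for lying apart from its group.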

How the results depend on the processing

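Of 56 calls of a member in a comparison, 44 held under every alternative run and 0 changed direction. DESeq2 ended 1 call (Sema4a, BimS against WT in cDC2s), limma 5 (also Sema4f, RIPK3 against BimS in cDC1s; Sema4d and Sema7a, RIPK3 against WT in cDC2s; Sema7a between cell types), and RLE size factors, no filter and the replicate block none. With filterByExpr 55 of 55 held, and Sema3c was not tested. Leaving out 1 sample ended a call in 27 of 634 fits, each given with its gene above.

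The count of members differing between RIPK3 and BimS medium in cDC2s, 0 with edgeR, was 1 with DESeq2, 1 with limma on log2(count + 1), 3 without a filter and 4 with the replicate block, and lay between 0 and 1 when samples were left out (Nrp2 without WT replicate 1, Sema4a without WT replicate 3 at adjusted p = 0.0478). That of the interaction of BimS against WT, 1, was 3 without a filter and 2 with the replicate block (Plxna1 and Nrp2), and between 1 and 2 when samples were left out (Sema6d without cDC2 WT replicate 1, adjusted p = 0.0465). The interaction of RIPK3 against WT, 2, lay between 1 and 3 when samples were left out, and was 3 with DESeq2, without a filter and with the replicate block (Plxna1 added). That of RIPK3 against BimS, 1, lay between 0 and 1 when samples were left out. The cause was not tested. The other 6 counts stayed within 1.5 times their value. Apart from the calls named here and with Sema6b, Sema4a, Plxna1, Nrp1 and Nrp2, the replicate block changed no call between media. Where a group is left with 1 sample, that sample is assumed to vary like the others.

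Depth limits what can be said of 15 members below 10 counts, Plxnb1 and 6 of 7 class 3 ligands among them. With 3 samples or 2 per group, small changes can be missed. Levels are of mRNA. Without the strand of counting, Sema4d and Sema4g share reads with genes on the other strand to an unknown extent.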
